A study of Mus musculus with 6 samples.

Results

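The DNA replication genes are 45 genes that encode the machinery of S phase, from the proteins that mark an origin to those that pack the new DNA. They were followed in newborn lenses of wild-type mice and of mice that carry a single working copy of Pax6. A gene was counted as measured where a probe set was annotated to that gene alone, and the probe set with the highest mean log2 signal over the 6 arrays stood for it. In this way 43 of the 45 genes were measured, of 12393 genes on the array, and they were covered by 76 of 22626 probe sets. Gins2 and Chaf1a had no probe set of their own. The comparison was between 3 wild-type mice, stated to be of the NMRI background, and 3 Pax6 heterozygous mice (Pax6 lacZ/+), whose background is not stated with them, at postnatal day 1. A sample held the pair of lenses of an animal and was read on an array of its own. In the heterozygous mice the second Pax6 allele is replaced by lacZ in all cells of the animal, so that the change is not limited to the lens. The whole lens was used, which pools the dividing epithelium with the fiber cells.

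DNA replication is prepared when the origin recognition complex, Cdc6 and Cdt1 load the ring of Mcm proteins on DNA, a step called licensing. Cdc45 and the GINS complex then join the ring to make the active helicase, and primase, polymerases, the sliding clamp and enzymes of nucleotide synthesis follow. Many of these genes are transcribed at the start of S phase under E2F factors, and their RNA is therefore widely used as a sign of dividing cells. In the lens, division takes place in the anterior epithelium, and cells leave the cycle as they become fibers.

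The signals are linear values made with robust multichip average (RMA), a method that subtracts background, brings the arrays to a common scale and joins the probes of a probe set. Signals of different genes are not compared as amounts, since they depend on the probes. Of the 43 measured genes, 29 had a median signal of at least 50 and 14 were dimmer. Orc1, Cdc6, Pole and Tyms had median signals below 13.4, the highest median among 33 olfactory receptor probe sets that serve as a guide to background. Pax6 itself read 1169, 1760 and 963 in wild-type samples 1, 2 and 3 and 942, 1170 and 882 in heterozygous samples 1, 2 and 3, a log2 difference of −0.34 ± 0.24 (standard error, limma, unadjusted p = 0.207, unadjusted p = 0.0315 with the block). The genotypes overlapped, and Pax6 was lower in all 3 same-numbered pairs. Whether its probe set lies inside the replaced part is not known here. Samples with the same number deviated together in both genotypes, so same-numbered pairs are given beside the genotype means. Among the wild-type samples, number 2 was the lowest of all 6 samples in 18 of 43 replication genes (41.9%), a position it held in 21.1% of all genes.

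The replication genes as a group lay higher in heterozygous lenses, and none of them passed the adjusted test. Their median log2 difference, heterozygous minus wild-type, was 0.26, against −0.01 for all genes at their brightest probe set. The difference was above 0 in 37 of 43 genes (86.0%), and in 47.0% of all genes. In all 3 same-numbered pairs 18 were higher and 0 lower, where 14.4% of all genes were higher and 17.6% lower. When the probe sets of each gene were averaged instead, 19 were higher and 2, Orc2 and Rfc1, lower in all 3 pairs, and Rfc1 was lower without overlap. In whole lenses, more cells in S phase and more RNA per cell cannot be told apart. Of the 43 genes, 5 (Gmnn, Gins1, Wdhd1, Prim1 and Rrm1, the last 2 through a dimmer probe set than the one used here) stand on the list of changed genes that the study drew from these same samples and are not independent evidence of a direction. The 38 others had a median of 0.22, and 13 of them were higher in all 3 pairs. For Wdhd1 the paper also reports a higher level in heterozygous lenses by quantitative RT-PCR, on different RNA preparations.

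By limma, the adjusted p was under 0.05 for 0 of the 43 genes and 0% of all 22626 probe sets. The unadjusted p was under 0.05 for 3 genes higher (Wdhd1, Gins1 and Gmnn) and 0 lower, beside 1.12% of all genes in each direction. With the replicate number as a block, 14 genes were higher and 0 lower at the same unadjusted p, beside 5.31% and 4.52% of all genes. In that fit 0 of the 43 passed the adjusted threshold, and 2 of all probe sets did (0.00884%). The methods' t-test at its unadjusted p of 0.10 gave 4 genes higher (Wdhd1, Gins1, Gmnn and Pole) and 0 lower, beside 2.44% and 3.44% of all genes. The count of 3 rested on single samples. It was 0 without wild-type sample 2, 0 without wild-type sample 3, 11 without wild-type sample 1 and 5 without heterozygous sample 3. The share of all genes was not computed for these fits, so whether such counts are particular to the replication genes was not tested.

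**Figure D1:**
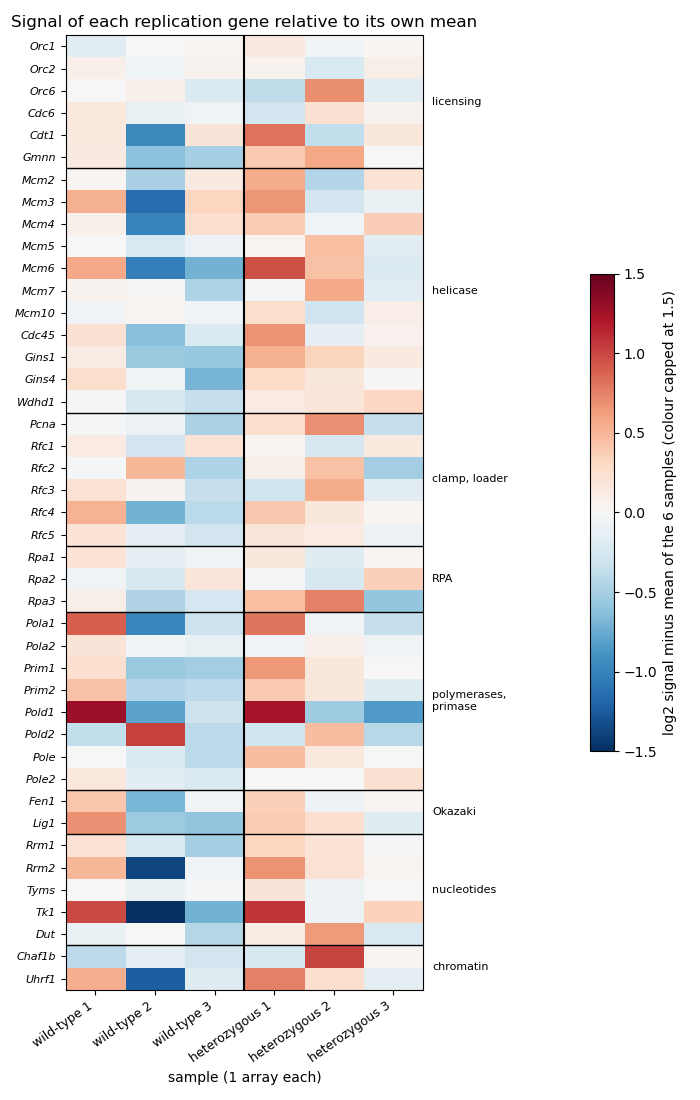
Each row is a measured replication gene and each column a sample, ordered by genotype, and colour gives the log2 signal minus the gene's mean over the 6 samples. Wild-type sample 2 is the bluest column, and wild-type sample 1 resembles heterozygous sample 1 in many rows, such as those of Pold1, Pola1 and Tk1.

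The size of the difference depended on the pair. The median over the 43 genes was 0.10 in pair 1, 0.56 in pair 2 and 0.13 in pair 3, with 27, 36 and 33 genes above 0. Without both samples of pair 2, a setting added after the data were seen, the median was 0.13. The median profile of the replication genes, as log2 signal against each gene's own mean, was 0.14, −0.23 and −0.27 in wild-type samples 1, 2 and 3 and 0.28, 0.17 and 0.00 in the heterozygous samples. Wild-type sample 1 thus lay above heterozygous sample 3, so the genotypes overlapped for the group as they did for 41 of its 43 members. Those that did not overlap were Wdhd1 and Gins1, both higher, with 0 lower, beside 2.57% of all genes higher and 3.49% lower without overlap. Leaving out wild-type sample 1 raised the number without overlap from 2 to 17, leaving out heterozygous sample 3 to 8 and heterozygous sample 2 to 5. With fewer samples the genotypes separate more easily in any gene, and the share of all genes was not computed for these settings. Among the 21 genes with a mean signal of at least 100, 17 had a difference above 0 (44.3% of all such genes), 9 were higher in all 3 pairs (15.6%) and 0 were higher without overlap (1.25%).

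**Figure D2:**
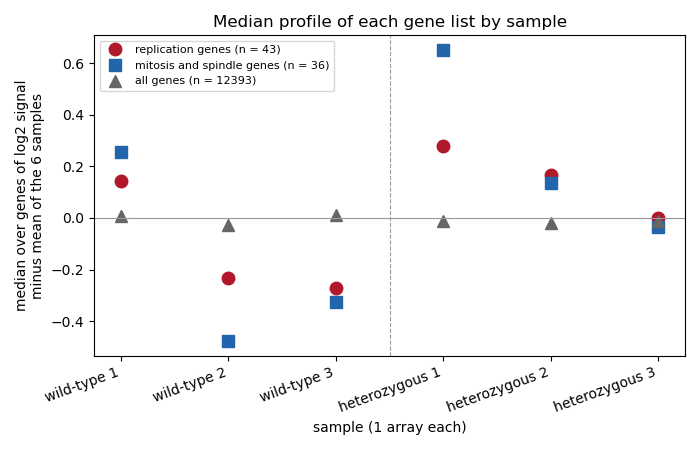
Points give, for each sample, the median over the genes of a list of the log2 signal minus the gene's mean over the 6 samples, for the 43 replication genes, 36 mitosis and spindle genes and all 12393 genes. The replication and mitosis genes are high in sample 1 of both genotypes and lowest in wild-type samples 2 and 3, while the median of all genes stays near 0.

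Promoters are shown because E2F sites are known from many S phase genes and CCAAT boxes from many genes of the cell cycle. RefSeq windows (assembly GRCm38.p6, from 250 bases before to 50 after a gene start) were at hand for 37 of the 45 genes. The E2F letters TTTCCCGC, TTTCGCGC, TTTGCCGC and TTTGGCGC were searched on both strands, and matches on opposite strands can overlap. They were found in 13 of 44 windows of the replication genes (29.5%) and in 2.26% of 32851 windows of all genes. By gene, this was 13 of 37 replication genes (35.1%) and 4.07% of all genes on the array with a window. Mcm6, Mcm5 and Uhrf1 are shown as genes with E2F letters before the start, and Rrm2 as one with CCAAT and no E2F letters in its window. Each stretch is the 200 bases before the gene start, 5′ to 3′ along the gene. Capitals mark the E2F letters in the first 3 and CCAAT in the last.
Mcm6 (chr1:128359706-128359905, minus strand): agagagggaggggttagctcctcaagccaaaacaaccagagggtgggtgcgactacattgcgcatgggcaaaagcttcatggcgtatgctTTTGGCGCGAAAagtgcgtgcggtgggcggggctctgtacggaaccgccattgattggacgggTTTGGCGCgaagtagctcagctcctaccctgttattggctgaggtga
Mcm5 (chr8:75109309-75109508, plus strand): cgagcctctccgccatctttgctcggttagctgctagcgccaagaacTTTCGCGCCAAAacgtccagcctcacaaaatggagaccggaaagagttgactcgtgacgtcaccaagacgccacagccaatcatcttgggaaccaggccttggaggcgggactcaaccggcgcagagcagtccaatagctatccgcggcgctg
Uhrf1 (chr17:56304113-56304312, plus strand): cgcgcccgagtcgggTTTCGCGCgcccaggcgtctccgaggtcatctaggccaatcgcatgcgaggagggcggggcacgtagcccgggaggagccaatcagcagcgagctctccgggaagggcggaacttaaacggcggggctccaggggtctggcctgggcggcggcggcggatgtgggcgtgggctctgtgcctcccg
Rrm2 (chr12:24708054-24708253, plus strand): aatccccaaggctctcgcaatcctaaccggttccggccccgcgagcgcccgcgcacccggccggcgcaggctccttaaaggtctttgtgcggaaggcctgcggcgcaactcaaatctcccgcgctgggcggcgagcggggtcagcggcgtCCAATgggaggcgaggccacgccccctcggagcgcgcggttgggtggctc

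In Mcm6 the letters start at positions −110, −106 and −47 relative to the gene start, the first of these overlapping the next on the opposite strand. Mcm5 has the same kind of overlapping pair at −153 and −149. The Uhrf1 stretch, with the letters at −185, belongs to the downstream one of its annotated starts and so lies inside the longer form of the gene, while the other stretches lie upstream of the first exon. The 13 measured genes with E2F letters had a median log2 difference of 0.22. Of these, 2 were higher in all 3 pairs, Mcm6 and Uhrf1, and both are among the stretches shown, which are thus not typical of the 13. The 23 without had a median of 0.21, with 11 higher in all 3 pairs. CCAAT on either strand was found in 23 of 37 replication genes (62.2%) and in 42.3% of genes on the array with a window. The median difference was 0.21 in the 22 measured genes with CCAAT and 0.26 in the 14 without. A match is a description of letters and not of a bound site.

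The helicase genes, the largest group, had the most members higher in every pair by number. By share, nucleotide supply (5 of 5) and chromatin behind the fork (2 of 2) had more, but these groups are small. The 5 include Tyms, below the background guide, and the 2 include Chaf1b, whose wild-type signals were near it. All 11 measured helicase genes had a difference above 0, with a median of 0.32, and 7 were higher in all 3 pairs. The medians of pairs 1, 2 and 3 were 0.31, 0.56 and 0.28. Gins1 and Wdhd1 passed the unadjusted p of 0.05 and none the adjusted one.

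Gins1, a subunit of the GINS complex of the active helicase, read 67.4, 42.5 and 41.9 in wild-type samples 1, 2 and 3 and 90.5, 78.6 and 68.5 in heterozygous samples 1, 2 and 3. All heterozygous values lay above all wild-type values, the closest being wild-type sample 1 and heterozygous sample 3. The log2 difference was 0.67 ± 0.22 (limma, unadjusted p = 0.0212, unadjusted p = 0.00159 with the block), the smallest p with the block among the 43 genes. Every gene in the group and in the list had an adjusted p of 1.00 without the block. Gins4, another subunit, had a difference of 0.32 ± 0.25, and 0.02, 0.21 and 0.72 in pairs 1, 2 and 3.

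Wdhd1, which links the helicase to polymerase alpha, read 17.9, 15.4 and 14.4 in wild-type and 19.9, 20.7 and 22.7 in heterozygous samples. Its values do not overlap either, but they are dim, not far above the olfactory receptor probe sets. Between genotypes the log2 difference was 0.41 ± 0.13 (limma, unadjusted p = 0.0188). Cdc45, the factor that with GINS turns the Mcm ring into a working helicase, was also dim, with 18.4, 10.1 and 13.5 in wild-type and 25.0, 14.4 and 16.4 in heterozygous samples. The genotypes overlap, since wild-type sample 1 exceeds heterozygous samples 2 and 3. Within pairs the differences of Cdc45 were close to each other, 0.44, 0.51 and 0.28, and its unadjusted p was 0.203 without and 0.00722 with the block.

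The Mcm genes, subunits of the ring, varied widely among the samples of a genotype. Mcm6 read 207, 68.0 and 84.6 in wild-type and 269, 188 and 119 in heterozygous samples. Sample 1 was high in both genotypes, and the heterozygous value was 1.30, 2.76 and 1.41 times the wild-type value in pairs 1, 2 and 3. The log2 difference of 0.78 ± 0.48 was the largest in the group, with an unadjusted p of 0.151 without and 0.0127 with the block. Mcm4, the brightest, read 858, 407 and 968 and 1065, 777 and 1052. Wild-type sample 2 was the lowest there, the differences by pair were 0.31, 0.93 and 0.12, and the unadjusted p was 0.23 without and 0.0378 with the block.

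Mcm3 was the most variable of the ring genes, with 152, 47.7 and 132 in wild-type and 166, 86.6 and 98.5 in heterozygous samples. Its difference of 0.19 ± 0.48 came to −0.33 without wild-type sample 2. Mcm2 (0.21), Mcm5 (0.22) and Mcm7 (0.26) had log2 differences of similar size, and Mcm10, a loader of Cdc45 that was dim here, had 0.04. For Mcm2 a second probe set went the other way (−0.11). The probe sets that stand for Mcm2, Mcm3, Mcm4 and Mcm7, and likewise those for Rfc4, Pold1, Fen1 and Rrm2, are of the kind that the manufacturer marks as able to match more than one transcript.

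**Figure D3:**
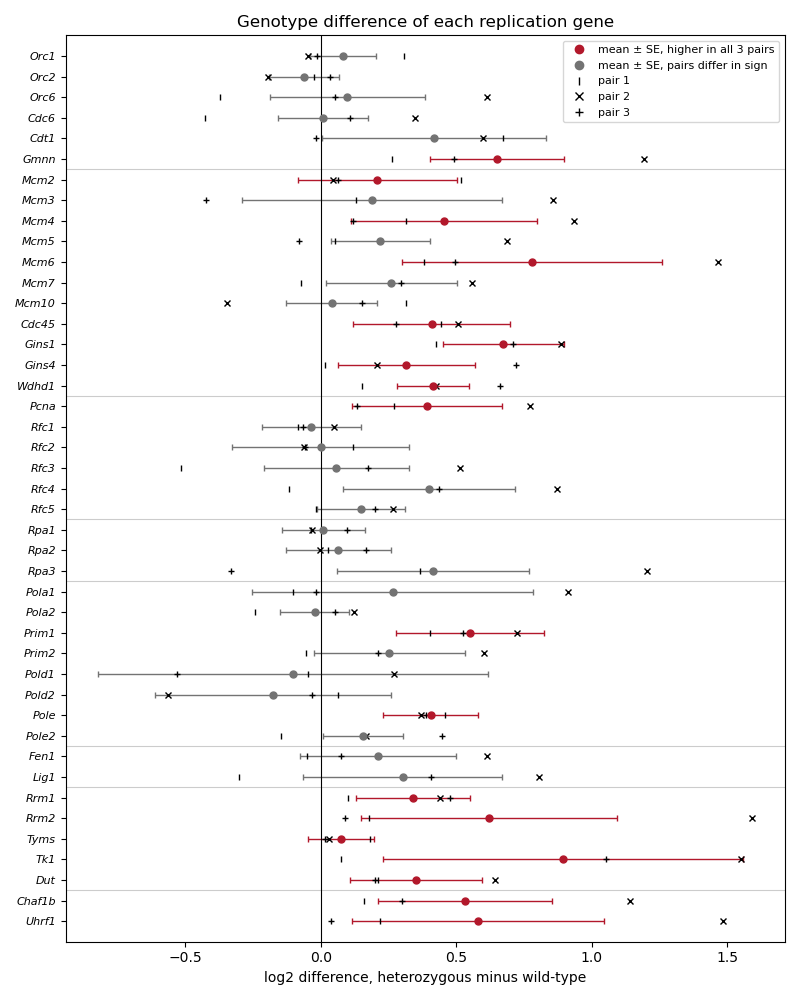
Points are log2 differences (heterozygous minus wild-type) with limma's standard error for each of the 43 genes, ordered by role, and small marks are the 3 same-numbered pairs. Red points, 18 in all, are higher in every pair, and the mark of pair 2 is often the farthest right.

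The 6 licensing genes had a median of 0.09, with 5 above 0 and 1, Gmnn, higher in all 3 pairs. Gmnn encodes geminin, the inhibitor that holds Cdt1 and so prevents a second licensing. It read 110.0, 65.8 and 71.2 in wild-type and 132, 150.4 and 100.2 in heterozygous samples. Wild-type sample 1 lay above heterozygous sample 3 and the other wild-type samples lay below all heterozygous ones. The log2 difference was 0.65 ± 0.25 (limma, unadjusted p = 0.0366, unadjusted p = 0.0137 with the block). Cdt1, the loader that geminin holds, was the most variable of the group, with 74.7, 34.6 and 77.2 and 119, 52.5 and 76.2 and a difference of 0.42 ± 0.41 (limma, unadjusted p = 0.347, unadjusted p = 0.0391 with the block). A second, dimmer probe set of Cdt1 read 19.2, 19.0 and 22.4 in wild-type and 31.2, 22.3 and 32.1 in heterozygous samples, higher in each pair, with a difference of 0.48 ± 0.18 (limma, unadjusted p = 0.0312, unadjusted p = 0.00779 with the block). The other one, near background, had 0.04.

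Orc2, a subunit of the origin recognition complex and the brightest of the licensing genes, read 579, 533 and 566 in wild-type and 568, 466 and 579.8 in heterozygous samples. It had the smallest spread within genotype of the 29 genes at or above a signal of 50, and the difference was −0.06 ± 0.13. Orc6, of the same complex, had 0.10, with pairs at −0.37, 0.61 and 0.05. Orc1, its largest subunit, and Cdc6, the ATPase that works with it, were near background with differences of 0.08 and 0.01.

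The genes of nucleotide supply were all higher in every pair, 5 of 5, with a median of 0.35 and pair medians of 0.18, 0.64 and 0.20. The count includes Tyms, whose signals lay below the background guide. None passed the unadjusted p of 0.05, and Rrm1, Tk1 and Dut did with the block. Tk1, thymidine kinase of the salvage pathway, read 148, 24.1 and 45.2 in wild-type and 156, 70.5 and 94.0 in heterozygous samples. Sample 1 was high in both genotypes, and the wild-type samples spanned 6.13-fold and the heterozygous ones 2.20-fold. The log2 difference of 0.89 ± 0.66 was the largest of the 43 genes, with an unadjusted p of 0.224 by limma and 0.0163 with the block. In pair 1 the ratio was 1.05, and in pairs 2 and 3 it was 2.93 and 2.08.

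Rrm2, the regulated subunit of ribonucleotide reductase, had signals of 1591, 434 and 1096 in wild-type and 1801, 1310 and 1167 in heterozygous samples. Wild-type sample 2 stood far below the other 5 samples, and the ratios by pair were 1.13, 3.02 and 1.06. Rrm2 differed by 0.62 ± 0.47 on the log2 scale. A second probe set behaved alike (103, 28.5 and 48.0 in wild-type and 112, 72.1 and 49.5 in heterozygous samples), and the third, near background, had a difference of −0.06. The partner subunit Rrm1 read 69.7, 50.9 and 42.3 and 74.8, 69.2 and 58.8, with a smaller spread and a difference of 0.34 ± 0.21 (unadjusted p = 0.152, unadjusted p = 0.0276 with the block).

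Dut, the enzyme that removes dUTP and so keeps uracil out of DNA, read 241, 257 and 192 in wild-type and 279, 401 and 220.3 in heterozygous samples. Here sample 2 was the highest within each genotype, unlike in Tk1 and Rrm2. The difference was 0.35 ± 0.24, with pairs at 0.21, 0.64 and 0.20, and the unadjusted p was 0.195 without and 0.0326 with the block. Tyms, thymidylate synthase, was below the background guide in all its single-gene probe sets, and its difference (0.08, above 0 in each pair) is one of background signals. A further probe set shared with its pseudogene was left out.

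The primase and polymerase genes were divided. Of 8 genes, 5 had a difference above 0 and 2, Prim1 and Pole, were higher in all 3 pairs. Prim1, the catalytic subunit of primase and the brightest of the group, read 318, 182 and 188 in wild-type and 420.1, 302 and 270.2 in heterozygous samples. Wild-type sample 1 exceeded heterozygous samples 2 and 3, but within pairs the ratios were 1.32, 1.65 and 1.44. The log2 difference was 0.55 ± 0.27 (limma, unadjusted p = 0.0863, unadjusted p = 0.0024 with the block). Pole, the catalytic subunit of the leading-strand polymerase, read 13.4, 11.4 and 10.1 and 18.4, 14.8 and 13.2, so that its difference of 0.41 ± 0.18 (limma, unadjusted p = 0.0565, unadjusted p = 0.00553 with the block) rests on signals near background. The probe set of Prim1 on the study's list, a dimmer one, read 79.6, 56.7 and 47.8 and 105, 89.9 and 82.6 without overlap, a difference of 0.62 ± 0.21. Prim2, the partner of Prim1, had a difference of 0.25 ± 0.28.

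Pold1, the catalytic subunit of the lagging-strand polymerase, was the most variable of all 43 genes. It read 201, 47.1 and 66.1 in wild-type and 195, 56.8 and 45.7 in heterozygous samples. Sample 1 was about as high in both genotypes, 4.26-fold and 4.26-fold above the lowest of its genotype, and the difference between genotypes was −0.10 ± 0.72. Pold2, its accessory subunit, was highest in wild-type sample 2 and had the lowest difference of the list, −0.18 ± 0.44. Pola1 and Pola2, of the polymerase that extends primers, had 0.27 ± 0.52 and −0.02 ± 0.13, and Pole2, a subunit of the leading-strand enzyme, had 0.16 ± 0.15.

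**Figure D4:**
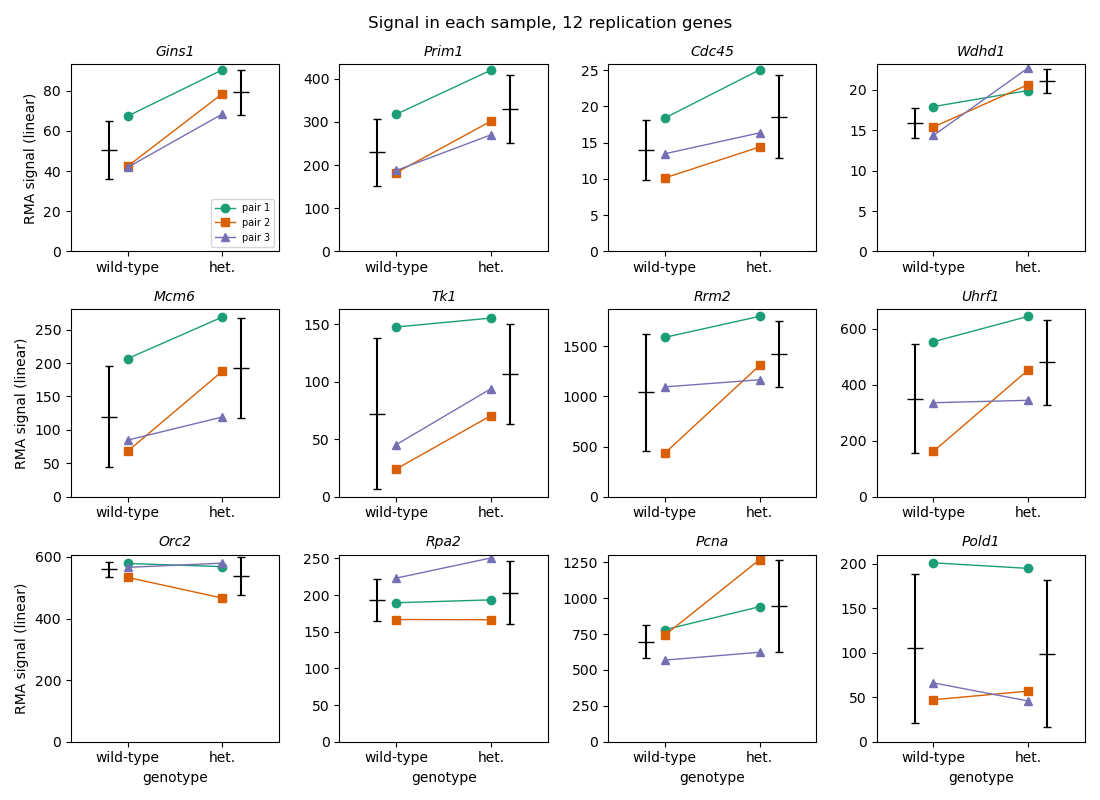
Each panel shows the linear RMA signal of a gene in wild-type and heterozygous (het.) samples, with lines joining same-numbered pairs and black bars for the mean ± SD of 3 samples. The lines of Gins1, Prim1, Cdc45 and Wdhd1 rise in each pair, pair 2 rises steeply in Rrm2 and Uhrf1, and the lines of Orc2 and Rpa2 are nearly flat.

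The sliding clamp was higher in every pair, and the genes of its loader were not. Pcna, the clamp that tethers polymerases to DNA, read 780.2, 742 and 568 in wild-type and 940.2, 1268 and 623 in heterozygous samples. The value of heterozygous sample 2 was the highest and that of wild-type sample 3 the lowest. Pcna differed by 0.39 ± 0.28 on the log2 scale (limma, unadjusted p = 0.204, unadjusted p = 0.0379 with the block), and it was above 0 in each pair (0.27, 0.77 and 0.13). Of the 5 loader genes 0 were higher in all 3 pairs. Rfc1, the large subunit and the brightest, read 1249, 937 and 1325 and 1178, 968 and 1265, a difference of −0.03 ± 0.18.

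Rfc2 was the most variable loader gene, with 167, 241 and 124 in wild-type and 181, 231 and 119 in heterozygous samples. Same-numbered samples were close to each other there, and the difference was −0.00 ± 0.33. Rfc3, Rfc4 and Rfc5, the other small subunits, had 0.06, 0.40 and 0.15.

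The single-strand binding protein RPA showed little difference in its larger subunits. Rpa1 read 765, 598 and 635 in wild-type and 747, 586 and 678 in heterozygous samples, a difference of 0.01 ± 0.15. Rpa2 had a difference of 0.06 ± 0.19. Rpa3, the smallest subunit, read 111, 76.6 and 88.3 and 143, 177 and 70.2. It was highest in heterozygous sample 2 and lowest in heterozygous sample 3, and its difference of 0.41 ± 0.35 was within this spread.

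Of the genes that finish the lagging strand, Fen1, the flap nuclease, read 1922, 897 and 1399 in wild-type and 1855, 1372 and 1473 in heterozygous samples. Lig1, the ligase, read 49.5, 21.1 and 20.6 and 40.2, 36.9 and 27.3. In both, wild-type sample 1 was the highest of all 6 samples and the differences were 0.21 ± 0.29 and 0.30 ± 0.37. Neither was higher in all 3 pairs, since both were lower in pair 1.

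Both measured genes of chromatin behind the fork were higher in all pairs, most of all in pair 2. Uhrf1, which brings the maintenance DNA methyltransferase to newly made DNA, read 554, 162 and 336 in wild-type and 645, 453 and 344 in heterozygous samples. As in Rrm2, wild-type sample 2 was far below the others, and the ratios by pair were 1.16, 2.80 and 1.03. Uhrf1 differed by 0.58 ± 0.46 on the log2 scale. A second Uhrf1 probe set at background had −0.05. Chaf1b, a subunit of the histone chaperone CAF-1, read 12.4, 14.9 and 13.5 and 13.8, 32.9 and 16.7, so that its wild-type signals lay near the background guide. Its difference of 0.53 ± 0.32 (limma, unadjusted p = 0.143, unadjusted p = 0.0388 with the block) came largely from heterozygous sample 2.

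**Figure D5:**
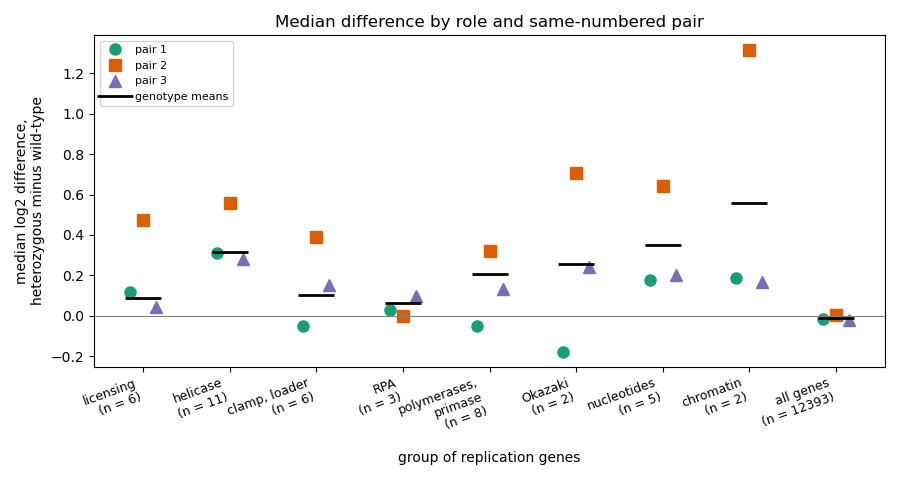
Symbols give the median log2 difference (heterozygous minus wild-type) over the genes of each role in pairs 1, 2 and 3, and black bars the median of the difference between genotype means. Pair 2 has the highest median in every role except RPA, and all genes together lie near 0 in each pair.

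The typical replication gene also spread more within a genotype than the typical gene, which was not tested. Among genes with a mean signal of at least 50, the median SD of log2 signal within genotype was 0.40 for the 29 replication genes and 0.30 for all 5635 genes, and 23 of the 29 lay above the median of all genes. Pold1 (SD 1.11), Tk1 (1.02), Pola1 (0.79) and Mcm3 (0.73) had the widest spread. Several genes shared the pattern of a low wild-type sample 2. The geometric mean of wild-type samples 1 and 3 was 3.39 times the value of sample 2 in Tk1, 3.04 times in Rrm2, 2.96 times in Mcm3 and 2.66 times in Uhrf1. Where a gene had several probe sets these had the same sign in 19 of 23 genes, the exceptions being Mcm2, Rpa1, Rrm2 and Uhrf1.

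Other genes of the same process had a lower median difference, which was not compared by a test. Of 44 further replication genes, such as those of the remaining ORC and polymerase subunits, 33 were measured and had a median log2 difference of 0.12. Of these 21 were above 0, 10 were higher and 3 lower in all 3 pairs, and 0 passed an unadjusted p of 0.05 by limma (7 did with the block, all higher). The smallest p values belonged to Chtf18, of an alternative clamp loader (10.6 ± 1.20 and 13.0 ± 1.07, SD, difference 0.29 ± 0.14, near background), and Dck, deoxycytidine kinase (307 ± 71.7 and 433 ± 110.4, difference 0.49 ± 0.25). Of the E2F, pocket protein and S phase cyclin genes, 16 of 20 were measured, with a median of 0.12 and 10 above 0. Ccne1, the cyclin that starts S phase, read 21.6, 15.2 and 22.1 in wild-type and 30.0, 27.5 and 27.3 in heterozygous samples (difference 0.54 ± 0.17, limma, unadjusted p = 0.0177, unadjusted p = 0.00662 with the block). Cdc25a, the phosphatase that activates its kinase, had a difference of 0.69 ± 0.30.

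The mitosis and spindle genes had a higher median difference than the replication genes, likewise without a test. Of 40 genes 36 were measured, with a median of 0.46, 33 above 0, and 23 higher and 1 lower in all 3 pairs. By limma 3 were higher and 1, Spag5 of the spindle, lower at an unadjusted p under 0.05 (22 and 1 with the block), and 0 passed the adjusted threshold. Aurkb, a kinase of chromosome segregation, read 21.3, 14.8 and 12.4 in wild-type and 25.1, 33.1 and 23.7 in heterozygous samples, a difference of 0.77 ± 0.24. Cdca3, needed for entry into mitosis, read 143, 59.4 and 83.7 and 237, 169.8 and 137, a difference of 0.99 ± 0.36. E2F letters were found in the promoters of 1 of 33 mitosis genes with a window (3.03%) and CCAAT in 78.8%.

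Markers of other tissues that a dissected lens could carry also moved between samples. The summed signal of 10 endothelial genes was 2021, 950 and 846 in wild-type and 3635, 1171 and 1103 in heterozygous samples, higher in each pair, with sample 1 the highest in both genotypes as for the replication genes. Tek and Flt1, the brightest of the list, weigh most in this sum, and the pairs of Flt1 differed in sign. Of the 10 genes 9 were above 0 and 6 were higher in all 3 pairs, where 47.0% and 14.4% of all genes were. Pecam1, the defining marker of endothelium, was near background (0.55), and Tek had 0.52. The 16 retinal progenitor and neuron genes of 17 listed summed to 1906, 1399 and 1566 in wild-type and 2753, 2690 and 1844 in heterozygous samples. Nrl and Rcvrn were near background, Neurod1 had a difference of 0.69, Elavl4 −0.50, and 13 of the 16 were above 0. Fgf15, a growth factor of retinal progenitors named after its values were seen, had the largest difference of the list, 1.88 (mean signals of 114 and 391, adjusted p = 0.0357 by limma with the block). The 12 macrophage genes summed to 1474, 524.5 and 493.5 in wild-type and 1634, 1267 and 307 in heterozygous samples. Adgre1 and Cx3cr1 were near background, and 9 of 12 were above 0, with Cd68 at 0.68 and C1qa at 0.72, both dim in wild-type. In pair 3 the macrophage genes went the other way, with a median of −0.40 and 2 of 12 above 0. The part of these cells in the differences of the replication genes was not tested.

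The markers of the lens itself had medians nearer to 0. Of 9 epithelium genes 0 were higher and 3 lower in all 3 pairs, and of 8 measured fiber genes 2 were higher and 5 lower. Among all genes 14.4% were higher and 17.6% lower. By limma with the block, 2 epithelium and 2 fiber genes were lower and 0 higher at an unadjusted p under 0.05. The shares of all genes there were 4.52% lower and 5.31% higher. Pax6, the gene whose copy is lost, is on the epithelium list. It is 1 of the 2 epithelium genes lower with the block, beside Cdh1, and 1 of the 3 lower in all 3 pairs. Its decrease is therefore not a sign of the epithelium genes as a group. The 9 lens epithelium genes had a median difference of −0.02, with Cdh1 at −0.48 and Sox2 at −0.22, and were present except Foxe3, which was near background. Of the lens fiber genes 8 of 12 were measured, with a median of −0.07, Dnase2b at −0.51 and Gja3 at −0.56. The 9 mesenchyme genes had a median of −0.24 (Pdgfra −0.59, Foxc1 0.96), the 5 pigment cell genes 0.02 (Dct 0.27, Mitf −0.10) and the 4 red blood cell genes −0.09 (Hba-a1 −0.12, Slc4a1 −0.14). Of these, Dcn, Lum, Hba-a1 and Hbb-y were near background. All 7 genes of cornea and conjunctiva epithelium were near background, with a median of −0.01 (Krt13 −0.15, Trp63 −0.25).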

How the data were processed

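Lens RNA from 3 wild-type and 3 Pax6 heterozygous newborn mice was hybridized to Affymetrix arrays. Per the methods, 50 ng of total RNA was amplified with the NuGEN Ovation system. The authors made the deposited signal intensity values by RMA, on a linear scale; its version is not given in the sources used here. The deposited table has fewer probe sets than the array type that the methods name, and which array was used is not settled here. The values hold no counts or depth, and the number of arrays limits precision.

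From these values log2 signals were taken without further normalization. Genotypes were compared with limma 3.58.1 in R 4.3.3 (lmFit, eBayes), adjusted by Benjamini-Hochberg over 22626 probe sets with manufacturer controls left out. Genes were named by the annotation table supplied with the values. Deviations from the genotype means correlated at 0.645, 0.734 and 0.604 between same-numbered samples and at −0.0751 to −0.496 otherwise, above the bound of 0.1 in every pair; what the numbers share is not stated, and the block was run as an alternative. Values in all samples are given for the 12 genes with the smallest p and for the brightest and most variable gene of each role; of other lists the 2 genes with the smallest p are named, and a few more were named after their values were seen. The members and lists were chosen with earlier results of these data known. The steps were tested on simulated data. Python 3.11.15 and matplotlib 3.10.9 made the figures.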

Additional observations from a re-analysis of the deposited data

How the results depend on the processing

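The median log2 difference of the replication genes stayed above 0 under all alternatives, from 0.11 without wild-type sample 2 to 0.48 without wild-type sample 1, and 0 genes passed the adjusted threshold under any of them (smallest adjusted p 0.287, with the block). The count of 3 genes at an unadjusted p of 0.05 was 1 with the methods' t-test on log2 or on linear signals, 1 above a signal of 100, 14 with the replicate block, and 0 to 11 when single samples were left out. It was 0 without both replicate 2 samples and 0 without the genes on the study's list, both settings chosen after seeing the data. The count of 2 genes without overlap was 1 above a signal of 50, 0 above 100, 2 to 17 without single samples, 6 without both replicate 2 samples and 0 without the genes on the study's list. No share of all genes was computed for the settings that leave samples out, under which genotypes separate more easily in any gene. The count of 18 genes higher in all pairs was 9 above a signal of 100, where fewer genes remain. When the probe sets of each gene were averaged, 2 genes (Orc2 and Rfc1) were lower in all pairs and 1 (Rfc1) was lower without overlap, against 0 and 0 by the brightest probe set. With the block the adjusted threshold was passed by 2 of all probe sets and by 0 of the replication genes.

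Single genes whose sign turned all had a difference of at most 0.27 in size, and 25 of 43 never turned. Without both replicate 2 samples the values were −0.16 for Cdc6, −0.14 for Mcm3, −0.014 for Mcm5, 0.0043 for Orc2, −0.16 for Orc6, −0.0588 for Pola1, 0.0163 for Pold2, 0.0311 for Rfc2 and −0.17 for Rfc3. Array weights gave −0.0391 for Cdc6, 0.0026 for Rfc2 and −0.0129 for Rfc3, quantile normalization 0.0089 for Rfc2, median centring −0.0159 for Cdc6 and −0.0157 for Rpa1, and the mean of all probe sets −0.0407 for Rpa1. When single samples were left out the range was −0.10 to 0.15 for Cdc6, −0.078 to 0.47 for Fen1, −0.079 to 0.20 for Mcm10, −0.0158 to 0.48 for Mcm2, −0.33 to 0.50 for Mcm3, −0.12 to 0.0382 for Orc2, −0.22 to 0.31 for Orc6, −0.15 to 0.78 for Pola1, −0.0831 to 0.0669 for Pola2, −0.75 to 0.51 for Pold1, −0.45 to 0.29 for Pold2, −0.19 to 0.0775 for Rfc1, −0.23 to 0.26 for Rfc2, −0.21 to 0.22 for Rfc3, −0.0717 to 0.11 for Rpa1, −0.10 to 0.20 for Rpa2 and −0.0011 to 0.13 for Tyms. The cause was not tested.

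With 3 samples a genotype, p values without the block rest on the spread between samples, each of 1 mouse on 1 array. That spread includes what same-numbered samples share. With the block, p values rest on the spread of the 3 pair differences. Signals near background pull ratios toward 1, which touches the 14 genes under a median signal of 50 most.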
